A study of Mus musculus with 10 samples.

Results

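The cells sampled on day 8 of C6FAE treatment were compared with the fibroblasts the course started from. A cell was counted as day 8 (d8) or day 0 (d0) by the prefix of its name, and d8c cells, which were picked from colonies, were not counted as d8. A cell entered the comparison if UMIs of 4000 or more genes had been detected in it. This held for 62 of 72 d8 cells and for 72 of 84 d0 cells. These 134 cells were part of 670 kept and 808 deposited cells. Next to this threshold, the lowest kept d8 cell had 4105 detected genes and the highest cell left out had 3963. In d0 cells these numbers were 4084 and 3880.

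The series followed mouse embryonic fibroblasts (MEFs) towards cells resembling extraembryonic endoderm (XEN) by RNA sequencing of single cells that were picked by hand. The d0 cells were MEFs of the ICR strain in serum medium. The d8 cells had been moved to XEN reprogramming medium with 5 compounds, CHIR99021, RepSox, Forskolin, AM580 and EPZ004777, for 8 days. This medium held serum, serum replacement and basic fibroblast growth factor (bFGF). The methods of the paper also list valproic acid in its cocktail, while the paper names only the 5 compounds for the course sequenced here. Medium, compounds and time in culture changed together between d0 and d8 and cannot be told apart here, and no cells kept for 8 days without the compounds were analysed here. MEFs are a mixed primary culture and not a clone, so that a difference between d0 and d8 can hold both a change within cells and a change in which cells were present. In addition, apart from the d8c cells, no selection for XEN features is stated for d8 cells.

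Each compound acts on a pathway with well known target genes. CHIR99021 inhibits GSK3, the kinase that marks β-catenin for degradation, so that β-catenin can join TCF and LEF factors at Wnt target genes. RepSox inhibits the TGF-β receptor ALK5, which in fibroblasts drives contractile and matrix genes through SMAD proteins. Forskolin activates adenylyl cyclase, and the resulting cAMP acts through protein kinase A on CREB, which binds the cAMP response element (CRE). AM580 is an agonist of retinoic acid receptors, which bind paired response elements next to their target genes, and EPZ004777 inhibits the histone methyltransferase Dot1L.

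UMIs (unique molecular identifiers, which count captured RNA molecules) were scaled in each cell to CPM, the counts of a gene relative to a fixed total, without the spike-in RNAs, and the difference of a gene is the mean of log2(CPM + 1) over d8 cells minus that over d0 cells. The cells could not be assigned to the 10 sequenced batches. For this reason the whole set counted as 1 sample without replicates, no test was made, and the ranges given are ranges over cells. The d8 cells had between 17633 and 3259198 UMIs (median 676178) and the d0 cells between 49225 and 3679274 (median 344196). Ribosomal protein genes held a median of 9.66% of UMIs in d8 cells and 11.95% in d0 cells. UMIs per spike-in count had a median of 15.4 in d8 cells and 29.5 in d0 cells, so that scaling to the spike-ins lowers d8 against d0.

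A mean log2(CPM + 1) of 1 or more in d0 or in d8 cells was reached by 9557 genes, of which 467 were higher at d8 by over 2 (4.89% of the genes) and 287 were lower by over 2 (3.0%). At a difference of over 1, 1638 genes (17.1%) were higher and 1309 (13.7%) lower. The counts of the gene lists are to be read against these shares over all genes. In a short list, no member or 1 member past 2 in a direction lies near the shares at 2. A gene with a mean under 1 at d0 passed only through d8 and could only be higher. The reverse holds for genes with a mean under 1 at d8. The median difference was 0.08, and 69.2% of the genes lay within 1 in either direction. Of the genes called at 2, 61.9% were higher at d8. With totals set by the spike-ins the median difference became -0.57 and 22.7% of the called genes were higher, with 244 higher and 832 lower. Of 124 named genes past 2 (including some of the closing observations) 19, all of them higher genes with a difference between 2 and 3, then fell short of 2.

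The contrast was repeated among cells with a running number of 1 to 48 (42 d8 and 43 d0 cells) and above 48 (20 and 29 cells), since cells with different numbers may have been prepared apart, which is not stated. These contrasts share no cell, and their differences correlated over the 9557 genes with a Pearson r of 0.784, given as a description because genes are not independent. In the first range 630 genes were higher by over 2 and 257 lower (71.0% higher), and in the second range 329 and 559 (37.0% higher). The 275 higher genes common to both were 43.7% of the first list and 83.6% of the second, and the 191 lower ones 74.3% and 34.2%. No gene of the 467 or of the 287 had the opposite sign in either range. These genes were called from all of the same cells, so that an opposite sign was unlikely from the start and its absence shows little.

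**Figure D1:**
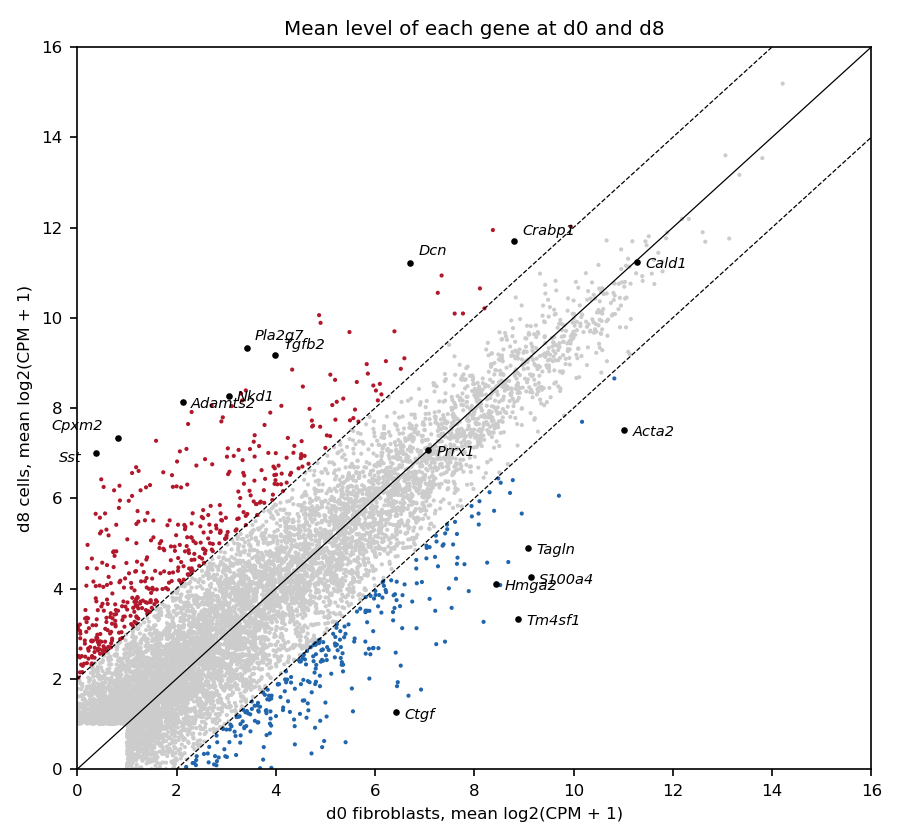
Mean log2(CPM + 1) over 72 d0 cells (x axis) and 62 d8 cells (y axis) for 9557 genes, each a point. Points past the dashed lines differ by over 2 (red higher at d8, blue lower), the solid line marks equal means, and black points are named genes, with *Prrx1* and *Cald1* on the line and *Ctgf*, *Tm4sf1* and *Acta2* far under it.

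Several genes that were low or absent in the fibroblasts were found in nearly all d8 cells. *Pla2g7* (chr17:43705047-43749150 on mm9), which encodes a secreted phospholipase that degrades platelet-activating factor, ran from 0 to 65.7 CPM (median 9.78) in d0 cells and from 46.9 to 2956 CPM (median 743) in d8 cells. The difference was 5.91, and 61 of 62 d8 cells lay above the highest d0 cell. *Cpxm2*, a carboxypeptidase-like protein, had the second largest difference of the tested genes, 6.52. It ran from 0 to 27.7 CPM (median 0) at d0 and from 0 to 1227 CPM (median 228) at d8, with 54 d8 cells above every d0 cell. *Adamts2*, the protease that trims the N-terminal propeptides of fibrillar procollagens, ran from 0 to 178 CPM (median 2.93) at d0 and from 0 to 1834 CPM (median 365) at d8, a difference of 6.01.

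Further genes among the 15 with the largest rise were *Brinp3* (5.94), the carboxypeptidase gene *Cpz* (5.72), the alcohol dehydrogenase gene *Adh1* (5.69), the CXCL12 scavenger receptor gene *Ackr3* (5.61), the nuclear receptor gene *Rorb* (5.50) and *Itih5* (5.46). *Angptl7* (5.44), *Tmem132c* (5.43), the glutathione peroxidase gene *Gpx3* (5.41) and *Gpm6b* (5.35) were in the same range. *Gpm6b* is a membrane glycoprotein of the proteolipid family, and it ran from 0 to 465 CPM (median 5.51) at d0 and from 9.39 to 2484 CPM (median 383) at d8. For *Angptl7* the levels were very uneven among d8 cells, from 9.39 to 12423 CPM with a median of 34.8, and only 8 of 62 d8 cells were above the highest d0 cell at 403 CPM. All 15 differed by over 2 also with a pseudocount of 10. With a pseudocount of 100 only *Pla2g7* (2.76) of these 15 did. *Adamts2* then differed by 1.995, *Cpxm2* by 1.65 and *Tmem132c* by 1.01.

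*Sst*, which encodes the peptide hormone somatostatin, had the largest difference (6.61) and was the only tested gene for which every d8 cell lay above every d0 cell. It ran from 0 to 10.1 CPM (median 0) at d0 and from 40.6 to 117724 CPM (median 82.7) at d8. However, a single d8 cell held 38373 of the 47178 *Sst* UMIs of all d8 cells (81.3%), and the next highest d8 cell had 1721 CPM. The quartiles over d8 cells were 63.0 and 138 CPM. All 10 d8 cells that had been left out for few genes also held *Sst* UMIs, with a median of 386 CPM, and so did all 20 kept d8c cells, with a median of 73.3 CPM. Whether the low level shared by these cells came from the cell with the very high level was not tested. Of the 15 genes with the largest rise, 13 had over 10% of their d8 UMIs in 1 cell. The share was 37.1% for *Angptl7*, 24.4% for *Gpx3* and 15.8% for *Adh1*. No kept d8 cell was under 9.39, 26.1 and 17.2 CPM for these 3 genes, and all 20 d8c cells held their UMIs. Whether their low levels came from the highest cells was not tested either. With a pseudocount of 100 CPM the difference of *Sst* was 1.35.

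Of 18 genes of the cAMP and CREB response 11 passed the level filter. Of these, 7 were higher at d8 by over 1 and 2 lower, against 17.1% and 13.7% of all genes. By over 2, 4 were higher and 1 was lower, against 4.89% and 3.0% of all genes. The median difference was 1.74 against 0.08 over all genes (0.89 with spike-in totals). *Nr4a2* passed only through d8, with a mean log2(CPM + 1) of 0.14 at d0 and 1.25 at d8, and could only count as higher. *Stc1*, which encodes the glycoprotein hormone stanniocalcin, ran from 0 to 106 CPM (median 3.34) at d0 and from 0 to 4213 CPM (median 139) at d8, a difference of 4.97. Phosphodiesterases, which degrade cAMP and form the negative feedback of this pathway, made up the other higher members. *Pde4b* differed by 2.87, *Pde10a* by 2.44 and *Pde4d* by 2.38. *Pde4d* differed by 1.40 among cells numbered above 48, and *Pde10a* by 1.69 when each cell was thinned to 50000 UMIs. *Crem*, whose short isoform represses CRE-driven genes, differed by 1.93, and *Inhba*, the activin subunit gene, was lower (-2.44). Neither *Vip* nor *Crh*, hormone genes of the same list, passed the filter. Over the summed CPM of the list, 42 of 62 d8 cells were above the d0 median of 345.

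The CRE itself stands close to the start of *Sst* and of *Gpm6b*, both among the 15 genes with the largest rise, and these sequences are shown because Forskolin acts on this element. They are 250 bases before the start site from RefSeq (GRCm38.p6), read 5′ to 3′ on the strand of the gene, at chr16:23890845-23891094 (minus strand) and chrX:166238693-166238942 (plus strand), with the CRE TGACGTCA in capitals.
Sst: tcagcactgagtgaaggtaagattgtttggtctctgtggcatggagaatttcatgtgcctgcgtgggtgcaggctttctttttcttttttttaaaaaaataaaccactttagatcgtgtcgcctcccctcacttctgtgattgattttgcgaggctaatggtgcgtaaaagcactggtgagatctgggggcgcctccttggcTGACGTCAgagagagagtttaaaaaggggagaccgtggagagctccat
Gpm6b: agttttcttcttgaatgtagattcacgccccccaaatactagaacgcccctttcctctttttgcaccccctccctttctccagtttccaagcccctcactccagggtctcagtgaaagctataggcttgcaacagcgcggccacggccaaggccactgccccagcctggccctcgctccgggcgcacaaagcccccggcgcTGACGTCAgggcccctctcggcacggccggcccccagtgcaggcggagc
The element lies 48 to 41 bases before the start of *Sst* and 49 to 42 bases before that of *Gpm6b*. It was found on either strand, with 50 bases after the start included, in 2.03% of 27025 genes with a promoter in the table and in 4.02% of the 7727 tested genes that matched it. Among matched genes higher by over 2 it was present in 10 of 364 (2.75%), and among those lower by over 2 in 6 of 242 (2.48%). Of the 8 matched genes of the cAMP and CREB response past the filter only 1 carried it, *Areg*, which differed by -1.08. A match describes the letters only and is no evidence of binding.

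Retinoic acid response genes were higher as well. Of 14 list genes 11 passed the filter, 5 were higher by over 2 (4.89% of all genes), none was lower by over 1 (13.7% of all genes), and the median was 1.74. The summed CPM of the list ran from 121 to 2772 in d0 cells (median 816) and from 951 to 13538 in d8 cells (median 5109). All 62 d8 cells were above the d0 median and 55 were above the highest d0 cell. *Crabp1* was the most abundant member.

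*Cyp26b1*, which encodes an enzyme that degrades retinoic acid, ran from 0 to 95.1 CPM (median 0.911) at d0 and from 0 to 1446 CPM (median 111) at d8, a difference of 5.37. *Crabp2* carries retinoic acid to its nuclear receptors and differed by 4.29, and *Dhrs3*, which reduces retinal to retinol, by 3.64. *Crabp1*, the other cellular retinoic acid binding protein, was already abundant in fibroblasts. It ran from 59.8 to 2343 CPM (median 540.2) at d0 and from 338 to 11632 CPM (median 3596) at d8, with 48 d8 cells above the highest d0 cell and a difference of 2.90 (3.70 among cells numbered 1 to 48, 1.60 among those above 48, and 1.85 with spike-in totals). *Rara*, the receptor AM580 prefers, stayed within 1 (0.04), and *Cyp26a1* did not pass the filter, with UMIs in 6 of 62 d8 cells.

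*Rarb* (chr14:17263356-17651381 on mm9) encodes retinoic acid receptor β and is itself a direct target of retinoic acid receptors. It ran from 0 to 578 CPM (median 1.02) at d0 and from 0 to 307 CPM (median 76.5) at d8, a difference of 4.26. The groups overlapped, since no d8 cell exceeded the highest d0 cell, but 60 of 62 d8 cells and 38 of 72 d0 cells held a UMI. Its promoter is shown because it carries the response element through which retinoic acid receptors are known to act on this gene. These are the 250 bases before the start at chr14:16575477-16575726 (minus strand, GRCm38.p6, RefSeq), with the DR5 element in capitals.
Rarb: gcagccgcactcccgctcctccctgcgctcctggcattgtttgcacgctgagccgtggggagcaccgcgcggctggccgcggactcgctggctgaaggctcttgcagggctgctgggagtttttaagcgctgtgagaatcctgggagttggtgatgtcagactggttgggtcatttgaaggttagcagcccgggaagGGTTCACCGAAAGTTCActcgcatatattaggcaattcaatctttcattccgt
The element lies 53 to 37 bases before the start. A DR5 element was found on either strand in 0.115% of 27025 genes with a promoter and in 4 of the 7727 matched tested genes, among which *Rarb* was the only gene higher at d8 by over 2.

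The Wnt target genes *Nkd1*, *Nkd2*, *Lef1*, *Axin2* and *Notum* were higher at d8 by over 2. Of 13 genes past the filter 5 were higher by over 2 and none lower by over 2, against 4.89% and 3.0% of all genes. Among the 13, *Tcf7*, *Sp5*, *Rnf43* and *Dkk1* passed only through d8, with d0 means of 0.50, 0.34, 0.14 and 0.36, and could only count as higher. The list median was 1.38. It was 0.79 with cells thinned to 50000 UMIs, 0.68 among cells numbered above 48 and 0.89 with spike-in totals. *Nkd1* (chr8:91045243-91118786 on mm9), an inhibitor of Dishevelled, ran from 0 to 127 CPM (median 9.75) at d0 and from 18.3 to 1637 CPM (median 362) at d8. The difference was 5.21, and 53 of 62 d8 cells were above the highest d0 cell. Its paralog *Nkd2* differed by 4.26. *Axin2*, a scaffold of the complex that degrades β-catenin and a standard reporter of the pathway, ran from 0 to 108 CPM (median 1.52) at d0 and from 0 to 399.8 CPM (median 63.9) at d8 (3.98).

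*Lef1*, which encodes a DNA-binding partner of β-catenin, differed by 4.09, and *Notum*, a secreted enzyme that inactivates Wnt ligands, by 3.39. Other inhibitors of the pathway did not pass 2, among them *Znrf3* (1.38), *Rnf43* (1.13) and *Dkk1* (0.66). In contrast, *Ccnd1* (cyclin D1) differed by -1.63 and *Myc* by -1.99, although both are often listed as Wnt targets. However, *Ccnd1* had been higher before. Its mean log2(CPM + 1) was 6.75 at d0, 9.03 at d1, 9.04 at d2, 7.69 at d5, 5.46 in d6p cells and 5.13 at d8. *Myc* had a median of 61.4 CPM at d0 and 3.04 CPM at d8. The TCF and LEF motif CTTTGAT was found on either strand in 4.29% of all promoters, in 2.89% of the matched tested genes, in 13 of the 364 matched higher genes (3.57%) and in 7 of the 242 matched lower genes (2.89%). Of the 8 matched Wnt target genes past the filter only 1 carried it, *Sp5* (1.61).

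**Figure D2:**
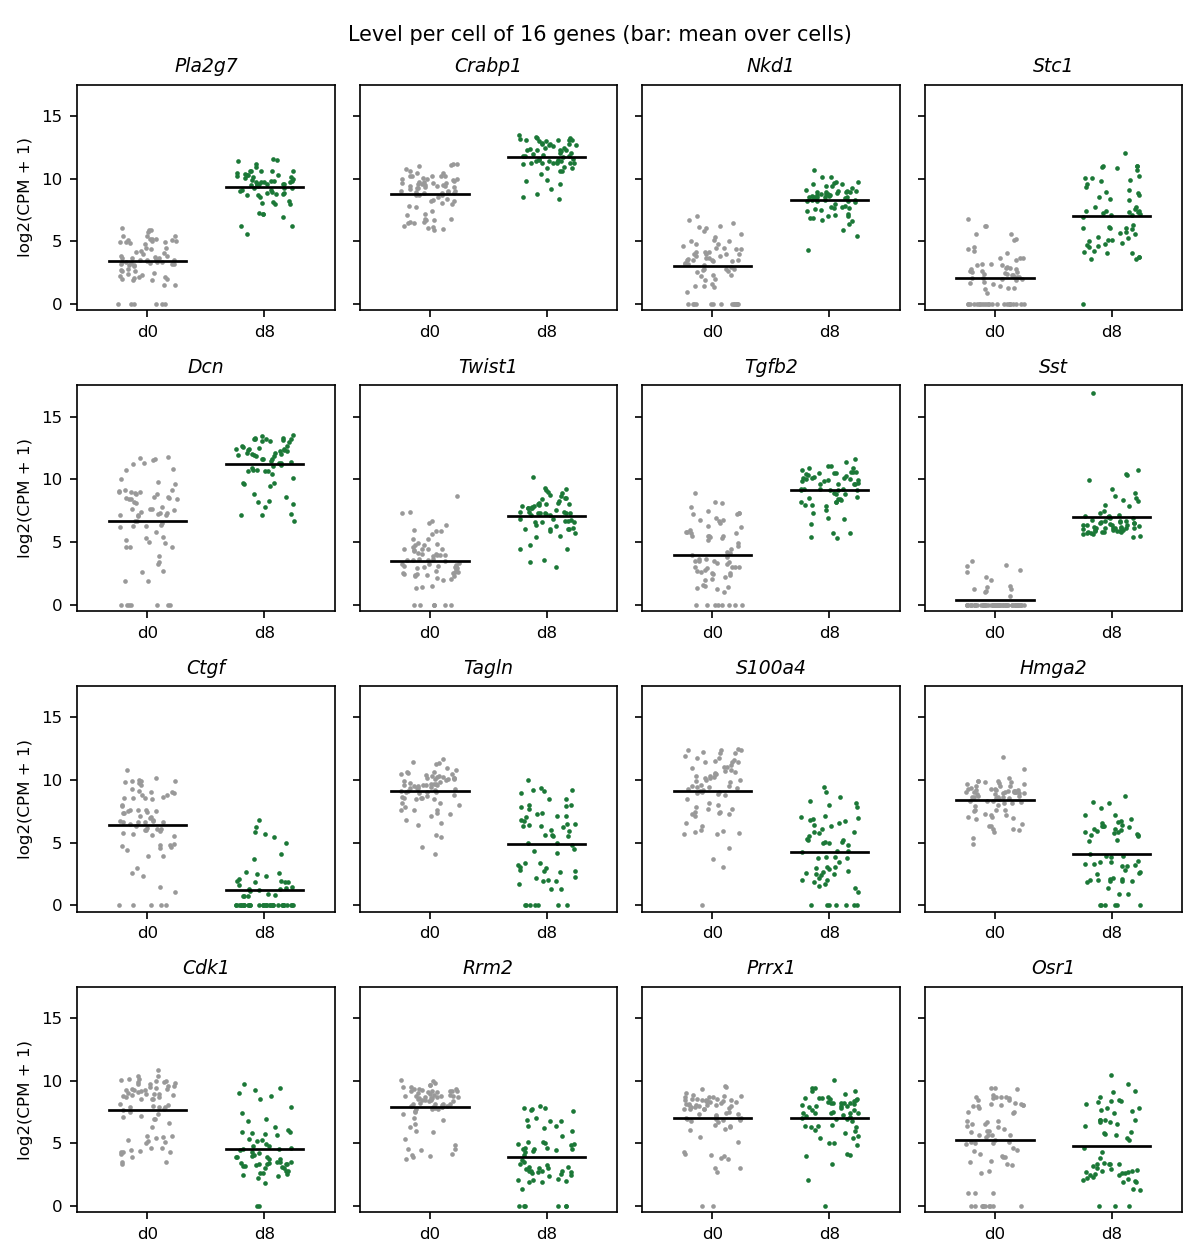
Log2(CPM + 1) of 16 genes in each of 72 d0 cells (grey) and 62 d8 cells (green), with bars at the means. *Pla2g7* and *Nkd1* barely overlap between groups, *Sst* shows 1 d8 cell far above a narrow band, *Cdk1* and *Rrm2* are low in most but not all d8 cells, and *Prrx1* is level.

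A number of TGF-β target genes were lower at d8 while the ligand gene *Tgfb2* was higher. Of 12 genes past the filter 4 were lower by over 2 and 2 higher by over 2, with a median of -0.81. *Ctgf* (chr10:24315248-24318489 on mm9), which encodes connective tissue growth factor, ran from 0 to 1774 CPM (median 106) at d0 and from 0 to 109 CPM (median 0) at d8, a difference of -5.17. The SMAD corepressor gene *Skil* (-2.58) and *Ltbp2* (-2.54) were also lower by over 2. *Skil* differed by -1.38 among cells numbered above 48. *Smad7*, the inhibitory SMAD, differed by -1.83.

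*Tgfb2*, which encodes the ligand TGF-β2, ran from 0 to 469.6 CPM (median 11.4) at d0 and from 39.6 to 3179 CPM (median 692) at d8. The difference was 5.17, and 39 of 62 d8 cells were above the highest d0 cell. *Tgfbi*, a secreted protein named for its induction by TGF-β, was higher too (4.03). *Cyr61*, a matrix protein of the same family as *Ctgf*, differed by only -0.51 and had medians of 1089 CPM at d0 and 800.1 CPM at d8, and its mean log2(CPM + 1) was 9.94 at d0, 6.53 at d3, 6.57 in d6p cells (day 6) and 9.43 at d8, so that it had been lower in between.

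The contractile genes regulated by serum response factor (SRF) were lower in part. Of 15 genes, all past the filter, 5 were lower by over 2, 1 was higher and 7 lay within 1, with a median of -0.85. *Acta2* (smooth muscle actin) ran from 66.5 to 17073 CPM (median 2727) at d0 and from 17.4 to 6203 CPM (median 145) at d8, a difference of -3.51. *Tagln* (transgelin) had medians of 677 CPM at d0 and 45.8 CPM at d8 (-4.18), and 61 of 62 d8 cells were under the d0 median. The focal adhesion genes *Actn1* (-2.69) and *Vcl* (-2.33) and the non-muscle myosin gene *Myh9* (-2.14) were lower as well. *Cnn1* (calponin) went the other way (2.53), while *Cald1*, the caldesmon gene and one of the most abundant of the list, was level, with medians of 2833 CPM at d0 and 2416 CPM at d8 (-0.04).

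The promoter of *Vcl* is shown as a member of this list with the binding motif of SRF. It covers 250 bases before the start at chr14:20929148-20929397 (plus strand, GRCm38.p6, RefSeq), with the CArG box in capitals.
Vcl: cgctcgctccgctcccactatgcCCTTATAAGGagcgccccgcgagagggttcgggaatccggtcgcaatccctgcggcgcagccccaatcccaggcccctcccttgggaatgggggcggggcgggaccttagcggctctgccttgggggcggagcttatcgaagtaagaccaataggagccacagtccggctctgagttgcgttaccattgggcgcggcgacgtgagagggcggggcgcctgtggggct
The box lies 227 to 218 bases before the start. CArG boxes were found in 4 of 13 matched promoters of this list (*Vcl*, *Cnn2*, *Srf* and *Myl9*) against 1.81% of all promoters and 1.67% of the matched tested genes, in 4 of the 242 matched lower genes (1.65%) and in 7 of the 364 matched higher genes (1.92%). Of these 4 list members *Vcl* alone was lower by over 2.

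The d8 cells kept fibroblast genes, but a different set of them stood out. Of 15 fibroblast markers, all past the filter, 6 were higher by over 2 and 4 lower by over 2, and their median of 0.21 was close to that of all genes. Their summed CPM had a median of 6164 at d0 and 16105 at d8. The d8 cells thus carried fibroblast markers as a group, with the mean levels of single markers moved in both directions. Whether the higher and the lower markers differed within the same cells was not tested. *Lum* (lumican) ran from 0 to 2163 CPM (median 43.3) at d0 and from 123 to 8175 CPM (median 1198) at d8, a difference of 4.99. *Dcn* (decorin), like lumican a small proteoglycan that binds collagen, ran from 0 to 3423 CPM (median 159.6) at d0 and from 103 to 11897 CPM (median 3472) at d8 (4.51).

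*Col3a1* (3.60) and *Col1a1* (2.08), which encode chains of collagens III and I, *Pdgfra* (3.49) and the surface marker gene *Thy1* (2.65) were higher as well. *Thy1* fell short of 2 with spike-in totals (1.70), and *Col1a1* was past 2 neither among cells numbered above 48 (1.75) nor with spike-in totals (1.02). The lower markers were *S100a4* (-4.90), a calcium-binding protein of motile fibroblasts, *Pdpn* (podoplanin, -3.02), *Vim* (vimentin, -2.48) and *Fn1* (fibronectin, -2.35). *S100a4* ran from 0 to 5555 CPM (median 728) at d0 and from 0 to 704 CPM (median 18.6) at d8, while *Vim*, present in every cell of both groups, ran from 204 to 3552 CPM (median 1264) at d0 and from 14.3 to 1666 CPM (median 232) at d8. *Fbn1* (-0.05) and *Pdgfrb* (0.21) lay within 1.

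The same split ran through the genes of matrix assembly. Of 19 genes past the filter 3 were higher by over 2, *Col6a3* (2.91), *Fbln1* (2.75) and the gelatinase gene *Mmp2* (2.17), and 3 were lower, *Bgn* (-4.92), *Timp1* (-2.60) and *Fbln2* (-2.41). Over all genes 4.89% were higher by over 2 and 3.0% lower. Of the higher genes *Fbln1* (1.86) and *Mmp2* (1.09) did not pass 2 among cells numbered above 48, and none of the higher ones did with spike-in totals (between 1.17 and 1.92). *Bgn* (biglycan) is a close relative of decorin, yet it ran from 0 to 2134 CPM (median 391) at d0 and from 0 to 337 CPM (median 5.41) at d8, opposite to *Dcn*. The relatives *Fbln1* and *Fbln2* likewise differed in opposite directions.

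Of the mesenchymal transcription factors more were higher than lower. Of 13 factors past the filter 4 were higher by over 2 and none lower by over 2, against 4.89% and 3.0% of all genes. The list median was 1.17, which was 0.04 among cells numbered above 48 and 0.13 with spike-in totals. *Twist1* ran from 0 to 399.6 CPM (median 9.48) at d0 and from 7.17 to 1136 CPM (median 157) at d8 (3.61), and *Tcf4* ran from 0 to 426 CPM (median 93.9) and from 43.0 to 1437 CPM (median 596) (2.82, and 1.82 with spike-in totals). The difference of *Snai2* (3.14) was 4.37 among cells numbered 1 to 48 and 0.92 among those above 48, and that of *Osr2* (2.50) was 3.14 and 1.32. Of the fibroblast master genes, *Prrx1* had medians of 212 CPM at d0 and 175 CPM at d8 and a difference of 0.00. *Twist2* differed by 1.17 and *Osr1* by -0.50. For *Osr1* the difference was 0.31 among cells numbered 1 to 48 and -1.97 among those above 48, and its d8 cells ran from 0 to 1437 CPM (median 16.2).

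**Figure D3:**
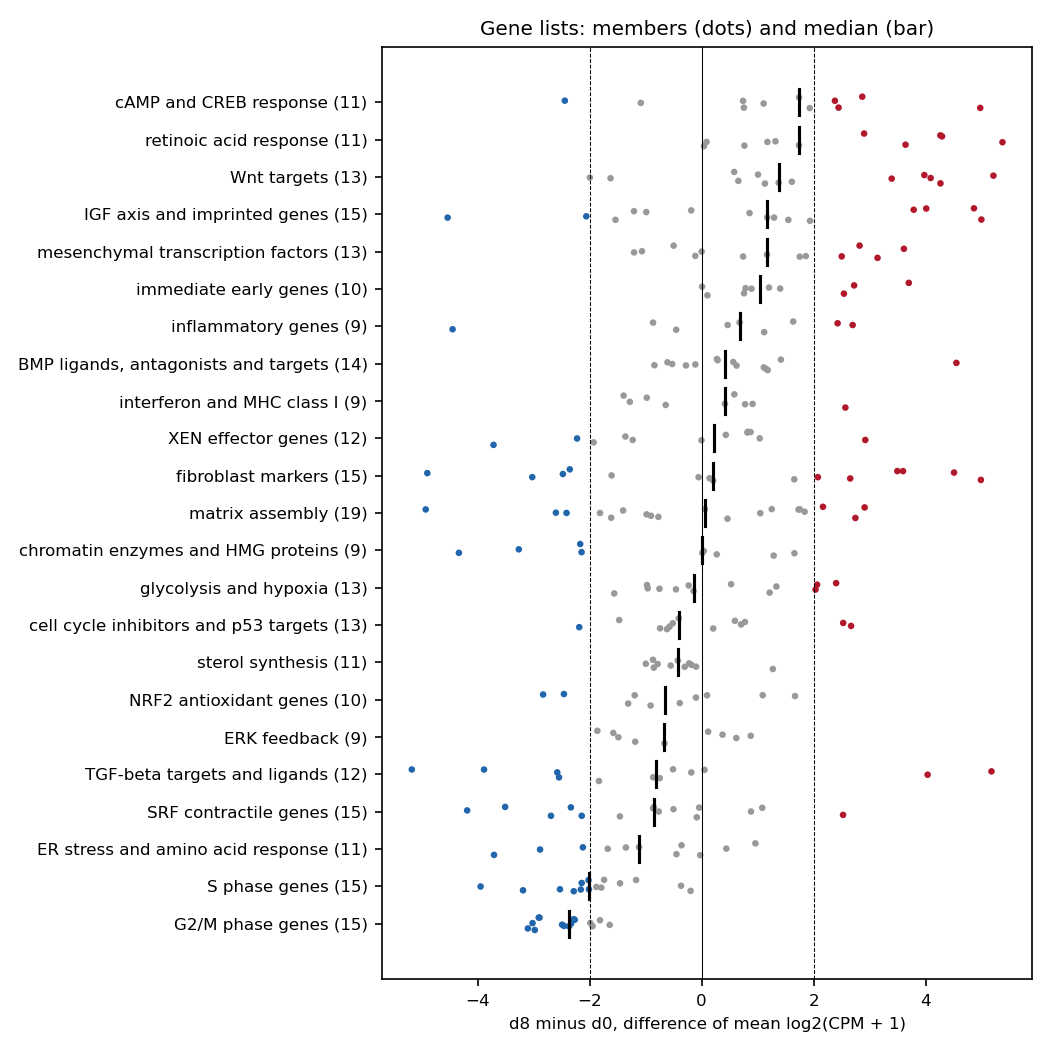
Difference between d8 and d0 in mean log2(CPM + 1) for the members of gene lists that passed the level filter (dots, number in brackets) with the list median (bar), ordered by median. Lists with few members past the filter are not drawn. These are the XEN transcription factors (3), the pluripotency genes (2) and the marker lists other than that of fibroblasts. Red and blue dots differ by over 2, and the lists run from a median of -2.37 for G2/M genes to 1.74 for cAMP and CREB response genes.

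Genes of the insulin-like growth factor (IGF) axis were among the higher ones. Of 15 IGF and imprinted genes past the filter 4 were higher by over 2 and 2 lower by over 2. The list median was 1.17, and 0.58 with spike-in totals. *Igf1*, the ligand, ran from 0 to 536 CPM (median 3.87) at d0 and from 10.4 to 4749 CPM (median 267) at d8, a difference of 4.86. The binding protein genes *Igfbp5* (4.99), *Igfbp3* (4.01) and *Igfbp2* (3.79) were higher, and *Igfbp6* was lower (-2.06). *Igfbp5* ran from 0 to 1353 CPM (median 7.37) at d0 and from 38.1 to 5854 CPM (median 377) at d8. *Igf2*, the gene of the fetal ligand, and the imprinted RNA *H19* lay within 1 (-0.19 and 0.86). *Dlk1*, an imprinted gene that encodes a Notch-like inhibitor of fat cell differentiation, ran from 0 to 1414 CPM (median 105) at d0 and from 0 to 56.9 CPM (median 1.83) at d8 (-4.53).

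Most d8 cells held little RNA of cell division genes. All 15 G2/M genes were lower by over 1 and 11 by over 2, with a median of -2.37. Of 15 S phase genes 13 were lower by over 1 and 8 by over 2 (median -2.01). *Cdk1*, the kinase that starts mitosis, ran from 9.12 to 1902 CPM (median 324) at d0 and from 0 to 842 CPM (median 14.8) at d8, a difference of -3.10. *Cenpe* (-3.02), a kinetochore motor, and *Birc5* (-2.98), the survivin gene, were the next largest. Among S phase genes *Rrm2*, a subunit of the enzyme that makes deoxynucleotides, ran from 12.5 to 1051 CPM (median 346) at d0 and from 0 to 250.3 CPM (median 11.0) at d8 (-3.94), followed by the helicase gene *Mcm5* (-3.19) and *Rrm1* (-2.53). *Slbp* (-0.20) and *Ung* (-0.37) lay within 1.

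The summed CPM of the G2/M genes showed that the cells were not uniform. It ran from 57.1 to 9613 in d0 cells (median 2498) and from 26.4 to 10331 in d8 cells (median 122). At least 1000 CPM were found in 46 of 72 d0 cells (63.9%) and in 9 of 62 d8 cells (14.5%), a mark set after the values were seen. The highest cell of all was a d8 cell, so that the ranges overlapped fully while 55 of 62 d8 cells were under the d0 median. The shares were 65.1% at d0 and 16.7% at d8 among cells numbered 1 to 48, and 62.1% and 10.0% among those above 48.

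**Figure D4:**
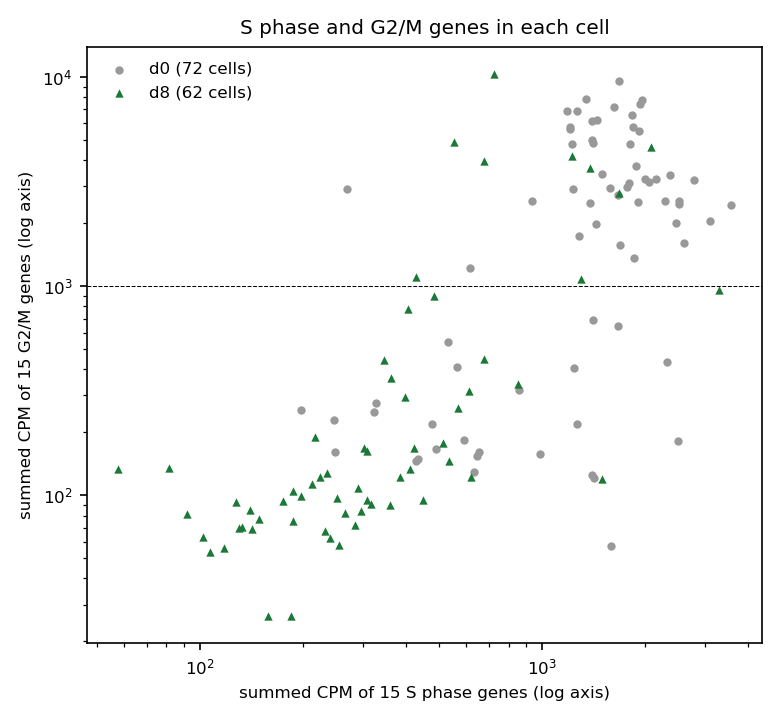
Summed CPM of 15 S phase genes (x axis) and of 15 G2/M genes (y axis) in each cell, both on log axes, for 72 d0 cells (grey circles) and 62 d8 cells (green triangles). The dashed line marks 1000 CPM, which 46 d0 cells and 9 d8 cells reached.

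Some genes of HMG proteins, which bind and shape chromatin, and *Dnmt1* were lower in the d8 cells. Of 9 genes past the filter 4 were lower by over 2 and none higher by over 2, and the list median was 0.01. *Hmga2*, a chromatin protein of fetal and growing tissue, ran from 28.8 to 3636 CPM (median 427) at d0 and from 0 to 430.4 CPM (median 13.8) at d8 (-4.33). *Hmgb2* (-3.26), *Hmgn2* (-2.17) and the maintenance methyltransferase gene *Dnmt1* (-2.14) were lower, the last by -1.71 among cells numbered 1 to 48. *Hmgb1* (0.01) and *Dot1l* (0.04), whose product is the target of EPZ004777, were level in RNA. The HMG genes have many processed copies in the genome, and their counts are less certain for it.

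Inhibitors of the cell cycle did not move together. Of 13 inhibitors and p53 targets past the filter 2 were higher by over 2, 1 was lower by over 2 and 9 lay within 1. *Cdkn2b*, which encodes the CDK4 and CDK6 inhibitor p15, ran from 0 to 250.2 CPM (median 20.7) at d0 and from 0 to 797 CPM (median 176) at d8 (2.67). *Cdkn2a*, its neighbour on the chromosome, held UMIs in 14 of 72 d0 cells and 46 of 62 d8 cells (2.53, and 1.95 with cells thinned to 50000 UMIs). The p53 targets *Cdkn1a* (-0.57) and *Mdm2* (-1.47) were not higher, and *Gdf15* was lower (-2.18, and -1.82 among cells numbered 1 to 48).

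*Phgdh*, *Psat1* and *Asns*, which encode enzymes of amino acid synthesis, were lower at d8 by over 2. Of 11 genes of the ER stress and amino acid response past the filter 3 were lower by over 2 (3.0% of all genes) and none was higher by over 1 (17.1% of all genes). The median was -1.12 (-0.73 among cells numbered above 48). *Phgdh*, the first enzyme of serine synthesis, ran from 0 to 1139 CPM (median 169.9) at d0 and from 0 to 232 CPM (median 9.07) at d8 (-3.71). *Psat1*, the next enzyme of the same pathway (-2.88), and the asparagine synthetase gene *Asns* (-2.12) followed. Of 10 NRF2 genes *Gclm* (-2.83) and *Nqo1* (-2.46, and -1.76 among cells numbered above 48) were lower by over 2 and *Srxn1* had the largest rise (1.67).

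Some hypoxia genes were higher while enzymes of glycolysis such as *Aldoa* (-0.46) and *Pgk1* (-0.75) lay within 1. Of 13 genes past the filter 3 were higher by over 2 (4.89% of all genes), *Bnip3* (2.40), *Vegfa* (2.06) and *Adm* (2.03), while *Ldha* differed by -0.96 and the median was -0.14. None of these 3 passed 2 among cells numbered above 48, where they differed by 1.75, 1.74 and 0.89, or with spike-in totals. All 11 measured genes of sterol synthesis were within 2, which is near the shares over all genes, with a median of -0.43 (-1.34 with spike-in totals).

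Of 10 immediate early genes past the filter 3 were higher by over 2 (4.89% of all genes), *Fos* (3.70), *Fosl2* (2.72) and the phosphatase gene *Dusp1* (2.54). None was lower by over 1, which in a list this short is near the share of 13.7% over all genes. The list median of 1.05 became 0.11 with spike-in totals, where *Fosl2* differed by 1.86 and *Dusp1* by 1.55. *Fos* ran from 0 to 711 CPM (median 9.44) at d0 and from 25.4 to 931 CPM (median 154) at d8, and its difference was 2.73 among cells numbered 1 to 48 and 5.19 among those above 48. These genes also respond to handling and digestion of cells, and whether this differed between the days was not tested. None of the 9 ERK feedback genes past the filter differed by over 2, which is near the shares over all genes, and *Dusp6* had the largest fall (-1.86).

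Among inflammatory genes chemokine genes differed in opposite directions. *Ccl2*, a chemoattractant of monocytes, ran from 4.16 to 14061 CPM (median 567) at d0 and from 0 to 1317 CPM (median 11.9) at d8 (-4.44). *Cxcl12*, the ligand of the receptor encoded by *Ackr3*, was higher (2.70, and 1.98 among cells numbered above 48). In all, 2 of 9 genes past the filter were higher by over 2 and 1 lower, against 4.89% and 3.0% of all genes. Of 9 interferon and MHC class I genes only *H2-K1* passed 2 (2.57), with 3.72 among cells numbered 1 to 48 and 0.62 among those above 48, while *B2m*, the shared light chain, differed by -1.39. A count of 1 in 9 is near the share over all genes. MHC genes are close copies of each other, and their counts may be split between them.

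The BMP list held 1 gene past 2 among 14 past the filter, near the shares over all genes (4.89% higher and 3.0% lower). *Msx2*, a homeobox gene induced by BMP, ran from 0 to 198 CPM (median 0) at d0 and from 0 to 427 CPM (median 54.5) at d8 (4.55). The BMP target gene *Id3* differed by 1.18 and *Id1* by 0.62. *Bmp2*, the ligand gene, ran from 0 to 52.1 CPM (median 2.55) at d0 and from 0 to 185 CPM (median 1.47) at d8, a difference of 0.27, which was 0.89 among cells numbered 1 to 48 and -0.83 among those above 48. Its mean log2(CPM + 1) was 1.71 at d0, 4.62 at d1, 5.93 at d2, 4.22 at d3, 1.37 in d6p cells and 1.98 at d8. *Bmp2* had thus been higher early in the course. The list median was 0.43.

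Few XEN transcription factors had measurable levels at d8. Only 3 of 14 XEN transcription factors passed the filter, and none differed by over 2. *Sox17*, which encodes an endoderm factor, held UMIs in 37 of 62 d8 cells (59.7%, 95% Clopper-Pearson interval 46.4 to 71.9%) and in 1 of 72 d0 cells (1.39%, interval 0.0352 to 7.50%). With cells thinned to 50000 UMIs, which left out 3 d8 cells and 1 d0 cell with fewer, these shares were 13.6% and 1.41%. Its level in d8 cells ran from 0 to 561 CPM (median 1.13) against a highest d0 cell of 8.15 CPM, and 8 d8 cells were above that. Intervals cover counting error only.

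*Sall4* held UMIs in 17 of 62 d8 cells (27.4%), with a highest level of 52.3 CPM, and in 0 of 72 d0 cells, which allows a share of cells with a UMI of up to 4.17% (3 cells of the total) and sets no limit on cells that express the gene. *Gata4* held UMIs in 5 of 62 d8 cells and 2 of 72 d0 cells, and *Sox7* in 8 and 6. *Foxa2* held none in either group, which allows a share of d8 cells with a UMI of up to 4.84%, again not of cells that express it. *Cited1* (1.56) and *Gata6* (-0.39) were the other factors past the filter. For comparison, the mean log2(CPM + 1) of *Sox17* was 0.04 at d0, 1.45 at d8 and 9.62 in the 38 kept d20 cells.

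The XEN effector genes were lower in sum, although the median of their differences was 0.22. Their summed CPM had a median of 821 at d0 and 402 at d8, and 52 of 62 d8 cells were under the d0 median. *Fst* (follistatin, -3.71) and *Pdgfa* (-2.22) were lower by over 2, and *Thbd* (thrombomodulin) was higher (2.92). With cells thinned to 50000 UMIs *Pdgfa* differed by -1.70. Of 15 pluripotency genes 2 passed the filter, among them *Klf4*, which was lower (-2.27), and 7 had no UMI in any d0 or d8 cell.

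Median levels of the markers of other cell types were at or near 0 in both groups, while single cells were higher. None of the 6 endothelial markers passed the filter, and of 7 macrophage and blood, 7 neural and 7 skeletal muscle markers 1 each did. The median summed CPM of the endothelial, macrophage and blood, and skeletal muscle markers was 0 at d0 and at d8, with highest sums of 237, 180.1 and 9218 at d0 and 197, 127 and 280.1 at d8. The high muscle sum belonged to d0, where *Myog*, a factor of muscle differentiation, reached 4424 CPM in 1 cell against at most 11.6 CPM in d8 cells. *Nes*, which is also active in cultured fibroblasts, was the neural marker past the filter (-2.21, and -0.79 among cells numbered above 48). Of 8 epithelial markers 3 passed, with *Krt19* lower (-2.29) and *Krt18* differing by 1.72, and neither *Cdh1* nor *Epcam* passed the filter. All 15 fibroblast markers passed the filter, as given above. Fat markers passed in 3 of 6 cases and cartilage and bone markers in 4 of 8, none of them past 2. Medians of the summed CPM of epithelial, neural, fat, and cartilage and bone markers were 11.4, 20.7, 14.2 and 20.9 at d0 and 12.4, 1.82, 11.4 and 6.70 at d8. Their highest sums were 1021, 941, 5041 and 1052 at d0 and 3036, 309, 421 and 4046 at d8.

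The 15 genes with the largest fall included surface receptors and secreted proteins. *Tm4sf1* (chr3:57089533-57105841 on mm9), a tetraspan membrane protein, ran from 15.8 to 3156 CPM (median 758) at d0 and from 0 to 278 CPM (median 5.10) at d8, the largest fall of the tested genes (-5.56). After *Ctgf* came *Spp1* (osteopontin), which ran from 27.2 to 5852 CPM (median 87.2) at d0 and from 0 to 936 CPM (median 1.42) at d8 (-5.17). A single d0 cell held 21530 of the 29565 *Spp1* UMIs of all d0 cells (72.8%), with quartiles of 61.2 and 173 CPM over d0 cells, and as for *Sst* it was not tested whether the low level in the other cells came from that cell. *Tnfrsf12a*, the receptor of the cytokine TWEAK, had medians of 156 CPM at d0 and 0 at d8 (-5.05). *Plaur* (-4.61) encodes the urokinase receptor and *Hbegf* (-4.35) a ligand of the EGF receptor. *Tinagl1* (-4.81), *Crip2* (-4.59), *Lgals3* (galectin-3, -4.47), *Fxyd5* (-4.45) and *Aspn* (asporin, -4.37) completed the 15 together with *Bgn*, *S100a4*, *Dlk1* and *Ccl2*. For none of these genes was every d8 cell below every d0 cell.

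The time points between d0 and d8 gave the levels on the way. They are other cells of the same course, and each comparison shares the d0 cells. Of the 467 higher genes 72 had reached at least 50% of their d8 difference at d1, a further 103 at d2, 101 at d3, 70 at d4, 20 at d5, 68 in d6p cells (the meaning of the p is not given) and 33 only at d8. Of the 287 lower genes 62 had done so at d1, 17 at d2, 64 at d3, 95 at d4, 15 at d5, 30 in d6p cells and 4 only at d8. These are first times, and genes could fall back, since 317 higher genes were at 50% or more at d4 and 307 at d5, and 224 lower genes at d4 but 166 (57.8%) at d5. The d1 cells had thus already lost *Ctgf*, whose mean log2(CPM + 1) was 6.43 at d0 and 2.07 at d1, and had gained *Nkd1* (3.05 and 5.84) and *Axin2* (1.53 and 4.91).

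*Igf1*, *Lum* and *Dcn* were higher in d6p cells than in d5 cells. *Igf1* was at 2.97 at d5 and at 7.14 in d6p cells, *Lum* at 6.74 and 9.23, and *Dcn* at 6.58 and 9.54. However, *Dcn* had been at 7.39 at d2 and 7.22 at d4. *Gpx3* was at 7.08 at d4, 3.29 at d5 and 6.15 in d6p cells. Whether the cells of these time points were prepared alike is not stated and was not tested. *Cdk1* was above its d0 mean of 7.65 at d1 (8.30) and at 5.07 at d4, and *Hmga2* was still at 6.55 in d6p cells before the mean of 4.11 at d8. *Acta2* moved up and down between the time points, with 6.45 at d3, 8.51 at d4 and 5.43 at d5. In d20 cells the higher genes as a group kept a median of -0.08 of their d8 difference and the lower genes 0.59, while in d12 cells these medians were 0.78 and 0.81.

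**Figure D5:**
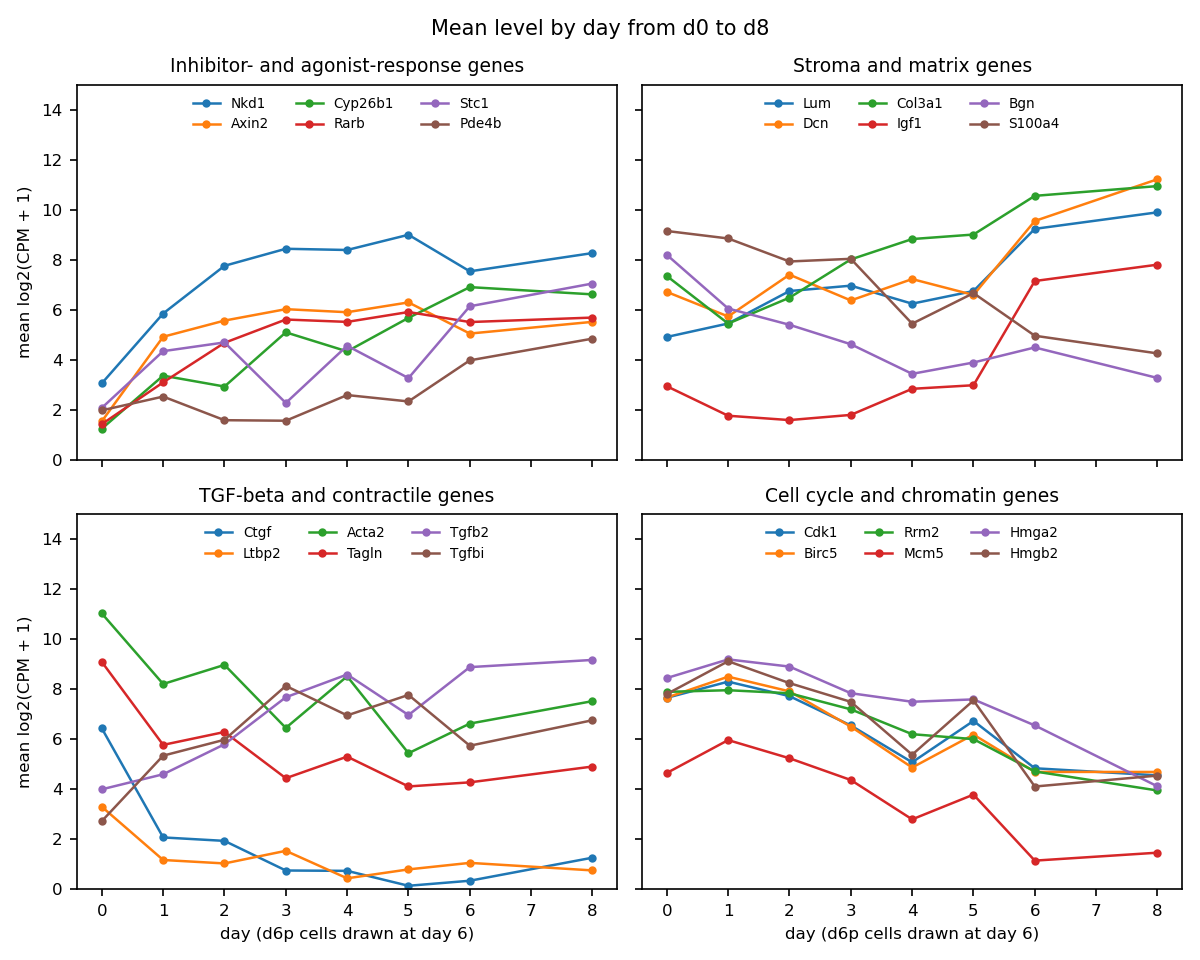
Mean log2(CPM + 1) by day (x axis, d6p cells at day 6) over the kept cells of each time point, for 6 genes in each of 4 groups. *Nkd1* and *Axin2* are high from day 1, *Igf1*, *Lum* and *Dcn* are higher at day 6 than at day 5, and *Ctgf* is under 1 from day 3 to day 6.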

How the data were processed

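The authors deposited whole-number counts of 23197 genes, 92 spike-in rows and 808 cells, in which each UMI counts once (reference: mm9 transcripts). The aligner is not given in the sources used here. Of the rows, 4 with duplicated names were left out.

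CPM, log2(CPM + 1) means and their differences came from pandas 2.3.3, numpy 2.4.6 and scipy 1.17.1 (Python 3.11.15). DESeq2 1.42.0 and edgeR 4.0.16 (R 4.3.3) gave the other scaling factors. The contrast was tested on simulated data. The 25 gene lists and 7 marker lists (412 entries), the cells and the threshold of 2 were chosen with earlier results of these data known. Named were the 15 largest rises and falls, master genes, *Bmp2* and up to 3 list members per direction, while further list members were named after their values were seen. Alternatives changed the filter on cells (2000 or 6000 genes or none), scaling, pseudocount, depth (50000 UMIs per cell), range of cell numbers and threshold. Positions are from GENCODE M1 on mm9, counted from 1. Promoters are from RefSeq (GRCm38.p6), matched by symbol or unique synonym for 7727 of 9557 genes. A withheld item is not reported here.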

Additional observations from a re-analysis of the deposited data

How the results depend on the processing

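The number of genes higher by over 2 was 467 and that of lower genes 287. These became 244 and 832 with totals set by the spike-ins, 123 and 65 with a pseudocount of 10, 13 and 5 with a pseudocount of 100 (added after the data were seen), and 1638 and 1309 at a difference of over 1. Among cells numbered above 48 the lower genes were 559. The higher genes in that range and both counts under no filter on cells, 2000 or 6000 genes, thinning, TMM or DESeq2 factors, the ratio of mean CPM, cells 1 to 48, the highest cell left out and no level filter stayed within 1.5 times. No list median past 1 and no named gene past 2 turned its direction under any alternative with a value. Cells under 50000 UMIs (3 at d8, 1 at d0) were left out of thinning. No paired analysis was possible because the cells carry no batch or replicate number. Low genes such as *Sall4* rest on few UMIs, so that 0 UMIs do not show that a gene was absent from a cell.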

Other observations

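With a pseudocount of 100 CPM, chosen after the data were seen, differences between low levels shrink, and 13 higher and 5 lower genes then passed a difference of 2. Apart from genes named above, 7 of the higher ones and 1 of the lower ones had not been described, and they were named after their values were seen. *Ctsb*, which encodes the lysosomal protease cathepsin B, ran from 32.2 to 1993 CPM (median 359) in d0 cells and from 746 to 9708 CPM (median 4323) in d8 cells, with 58 of 62 d8 cells above the highest d0 cell and a difference of 3.57 (3.17 with this pseudocount). *Htra1*, a secreted serine protease, ran from 0 to 346 CPM (median 31.0) at d0 and from 189 to 4995 CPM (median 1126) at d8 (5.19), and 56 d8 cells were above every d0 cell. *Maged1* ran from 5.71 to 754 CPM (median 187) at d0 and from 268 to 5219 CPM (median 1665) at d8 (3.29).

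The gap junction gene *Gja1*, which encodes connexin 43, had medians of 105 CPM at d0 and 955 CPM at d8 (3.31). *Mgst1*, a microsomal glutathione transferase, differed by 4.20, *Ramp3*, a partner protein of the receptors for adrenomedullin, by 4.52 and *Serpine2*, an inhibitor of thrombin, by 2.54. On the other side *Anxa3* (annexin A3) ran from 8.04 to 3453 CPM (median 909) at d0 and from 4.35 to 847 CPM (median 69.9) at d8 (-3.65). All 8 differed by over 2 in both ranges of running numbers, and *Serpine2* by 1.49 with spike-in totals.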
